A study of Mus musculus with 4 samples.

Results

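Genes of proteasome subunits were examined in RNA-Seq libraries of CD4+ T cells that had been isolated from lung tumors of wild type (WT) and CD4/ALK4-KO mice. The members were all genes with a symbol of Psma, Psmb, Psmc or Psmd followed by digits only, leaving out Psmb8 and Psmb9, which gave 37 of the 25239 genes listed. Of these, 17 encode the core particle and 20 the regulatory particle with its chaperones. After a filter on low counts, 36 of the 37 could be tested, among 13919 genes in all.

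The proteasome is the protease complex that degrades proteins tagged with ubiquitin. Its barrel-shaped core particle has outer rings of alpha subunits, which gate the entry, and inner rings of beta subunits, some of which cut the substrate. The regulatory particle caps the barrel, where it binds and removes the ubiquitin chain and threads the unfolded substrate inward with a ring of ATPases. Lymphocytes and cells exposed to interferon-gamma are known to replace the constitutive catalytic subunits Psmb5, Psmb6 and Psmb7 with the inducible Psmb8, Psmb9 and Psmb10, which gives the immunoproteasome and favors peptides presented on MHC class I.

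Each genotype gave 2 libraries, described by the submitters as biological replicates on a C57BL/6 background. The labels name the controls only as WT. CD4/ALK4-KO mice were CD4CreERT2+/-/Acvr1bfl/fl: Acvr1b encodes the activin receptor ALK4, and the Cre recombinase was driven by the Cd4 promoter and induced by 5 doses of tamoxifen at 75 mg/kg. Whether WT mice also received tamoxifen is not given in the sources used here. All mice were inoculated by vein with 500000 cells of LLC-OVA, an ovalbumin-expressing derivative of Lewis lung carcinoma, and tumors were taken 18 to 22 days later per the labels. The study's methods give a somewhat earlier range of days for the CD4/ALK4-KO experiment. The number of mice behind each library is not given in the sources used here.

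Libraries held between 11823908 and 13943237 counts. Whole-gene counts of Acvr1b were 426 and 342 in WT and 322 and 445 in CD4/ALK4-KO libraries, which overlap (log2 fold change 0.16 ± 0.24 SE, edgeR quasi-likelihood adjusted p = 0.66), and since they may include exons outside the deleted part they check no label. Cd4, which marks the cells that were isolated, had 759 and 649 counts in WT and 3654 and 4033 in CD4/ALK4-KO libraries (log2 fold change 2.62 ± 0.23 SE, adjusted p = 2.8e-08). All 16 T cell markers were higher in CD4/ALK4-KO libraries, and their summed level was 572 and 538 CPM (counts per library size after scaling) in WT against 3082 and 2906 CPM, 5.39 times as much. All 6 B cell markers were higher too, with sums of 62.0 and 52.6 CPM in WT and 174 and 338 CPM in CD4/ALK4-KO libraries. Macrophage markers summed to 6751 and 7622 CPM in WT and 6639 and 6389 CPM in CD4/ALK4-KO libraries, with 1 of 12 called higher. These sums lay above the T cell sum in all 4 libraries, but most of each was Lyz2. It had 58626 and 76926 counts in WT and 56638 and 52193 in CD4/ALK4-KO libraries. Without Lyz2 the macrophage sum lay below the T cell sum in both CD4/ALK4-KO libraries, but still above it in both WT libraries. Neutrophil markers summed to 935 and 1401 CPM against 1459 and 956 CPM, with 3 of 8 called higher. Markers of adherent tumor or stromal cells summed to 5695 and 5425 CPM in WT and 3783 and 3617 CPM in CD4/ALK4-KO libraries, a ratio of 0.666, with 5 of 11 called lower and 1 higher. These stromal sums also lay above the T cell sum in all 4 libraries. No listed marker was at 0 in any library. In such bulk samples, fewer cells of a type and less RNA per cell cannot be told apart, and the part of these differences in the results below was not tested.

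Promoter sequences of the members are shown first, because proteasome genes are known to be raised together by shared promoter elements. RefSeq promoters of the GRCm38.p6 assembly, spanning 250 bases before to 50 bases after the start, were listed for 30 of the 37 members and for 27025 genes in all. The core of the antioxidant response element, TGACNNNGC on either strand, is bound by NFE2L1, the factor known to restore proteasome genes when the protease is inhibited. It was present in 5 of 30 member promoters (16.7%, against 12.5% of all promoters), those of Psmb5, Psmb6, Psmc6, Psmd9 and Psmd12. The 120 bases before the start of the constitutive catalytic subunit genes Psmb5 (chr14:54617996-54618115, minus strand) and Psmb6 (chr11:70525237-70525356, plus strand) are given 5′ to 3′ on the gene's strand, with the match in capitals. The match begins 47 bases before the start of Psmb5 and 9 bases before that of Psmb6.
Psmb5: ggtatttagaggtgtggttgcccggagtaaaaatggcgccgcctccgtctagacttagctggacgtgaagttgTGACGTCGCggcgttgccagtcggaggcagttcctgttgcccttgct
Psmb6: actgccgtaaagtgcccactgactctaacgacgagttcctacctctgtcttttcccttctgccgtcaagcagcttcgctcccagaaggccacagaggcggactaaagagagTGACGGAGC

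The letters CCGGAAG, a site of ETS factors, were matched among the members only in regulatory particle promoters, though not in all of these. They were found on either strand in 9 of 17 regulatory particle promoters and in 0 of 13 core particle promoters, and in 9.12% of all promoters. The 9 matches are shown with their surroundings, 41 bases in all, read on the strand that holds the match, which is in capitals.
Psmc1: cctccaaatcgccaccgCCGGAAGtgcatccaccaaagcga
Psmc2: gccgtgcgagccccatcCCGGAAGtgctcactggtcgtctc
Psmc6: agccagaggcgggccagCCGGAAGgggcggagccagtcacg
Psmd2: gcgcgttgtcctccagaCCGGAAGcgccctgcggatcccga
Psmd4: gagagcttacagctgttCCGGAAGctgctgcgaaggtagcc
Psmd6: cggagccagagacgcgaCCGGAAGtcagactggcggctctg
Psmd11: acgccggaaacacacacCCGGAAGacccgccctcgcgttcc
Psmd12: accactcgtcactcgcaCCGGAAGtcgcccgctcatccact
Psmd13: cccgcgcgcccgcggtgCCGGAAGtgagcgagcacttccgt

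Regulatory particle genes with the match had log2 fold changes between CD4/ALK4-KO and WT from -0.52 to -0.21 with a median of -0.36. Those without it ran from -0.54 to -0.13, also with a median of -0.36. By edgeR 0 genes of either set were called (3 with and 2 without the match had an unadjusted p below 0.05), while DESeq2 called Psmc1 and Psmd12 with the match and Psmd1 without it. Psmd7, which edgeR called, has no promoter in the table and is in neither set. The NF-Y box CCAAT was found in 12 member promoters (40%, against 37.9% of all) and the E-box CACGTG in 3 (10%, against 7.24% of all). By particle, the NF-Y box was in 7 of 13 core and 5 of 17 regulatory promoters. Matches were counted per motif, also where motifs overlap, and a match describes letters only.

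To address whether the proteasome genes differed between the genotypes, the members were read from a test across all genes. Nearly all lay lower in CD4/ALK4-KO libraries, though few passed the test. Of 36 members tested, 7 fell and 0 rose at an adjusted p below 0.05. The 7 were the alpha ring genes Psma3, Psma5, Psma6 and Psma7, the catalytic beta ring genes Psmb6 and Psmb7, and the lid gene Psmd7. The 19.4% of members called lower is close to the 15.4% of all genes tested that were called lower, and the absence of members called higher stands beside 17.4% of all genes. At an unadjusted p below 0.05, 15 of 36 members were lower, a share above the 20.3% of all genes, and 1, Psmb10, was higher, against 22.1%. DESeq2 called 10 of 36 members lower, a share above the 14.4% of all genes it tested, and 0 higher, against 16.4%.

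The sign of the difference was more uniform than the calls. Both CD4/ALK4-KO libraries lay below both WT libraries in 33 of 36 members (91.7%), against 34.0% of all genes tested. The order was the opposite in Psmb10 alone, against 32.7% of all genes, and the groups overlapped in Psma8 and Psmc6. The median log2 fold change was -0.40 over the members and -0.0082 over all genes tested. Of the 34 members below 0, the 27 that edgeR did not call lay between -0.54 and -0.13, and standard errors of the 34 ran from 0.21 to 0.23.

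The members took 0.743% and 0.740% of all counts in the WT libraries and 0.586% and 0.549% in the CD4/ALK4-KO libraries. Scaled by the trimmed mean of M values (TMM), their summed level was 7573 ± 73.4 CPM in WT and 5575 ± 447 CPM in CD4/ALK4-KO (SD, n = 2 each), a ratio of 0.736. No permutation of 2 against 2 libraries can go below an exact two-sided p of 0.333, so this sum was not tested. Taking the WT mean of each gene as 100%, the median member stood at 99.4% and 101% in the WT libraries, at 79.2% in CD4/ALK4-KO replicate 1 and at 71.7% in replicate 2. Replicate 2 therefore lay farther from WT than replicate 1.

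**Figure D1:**
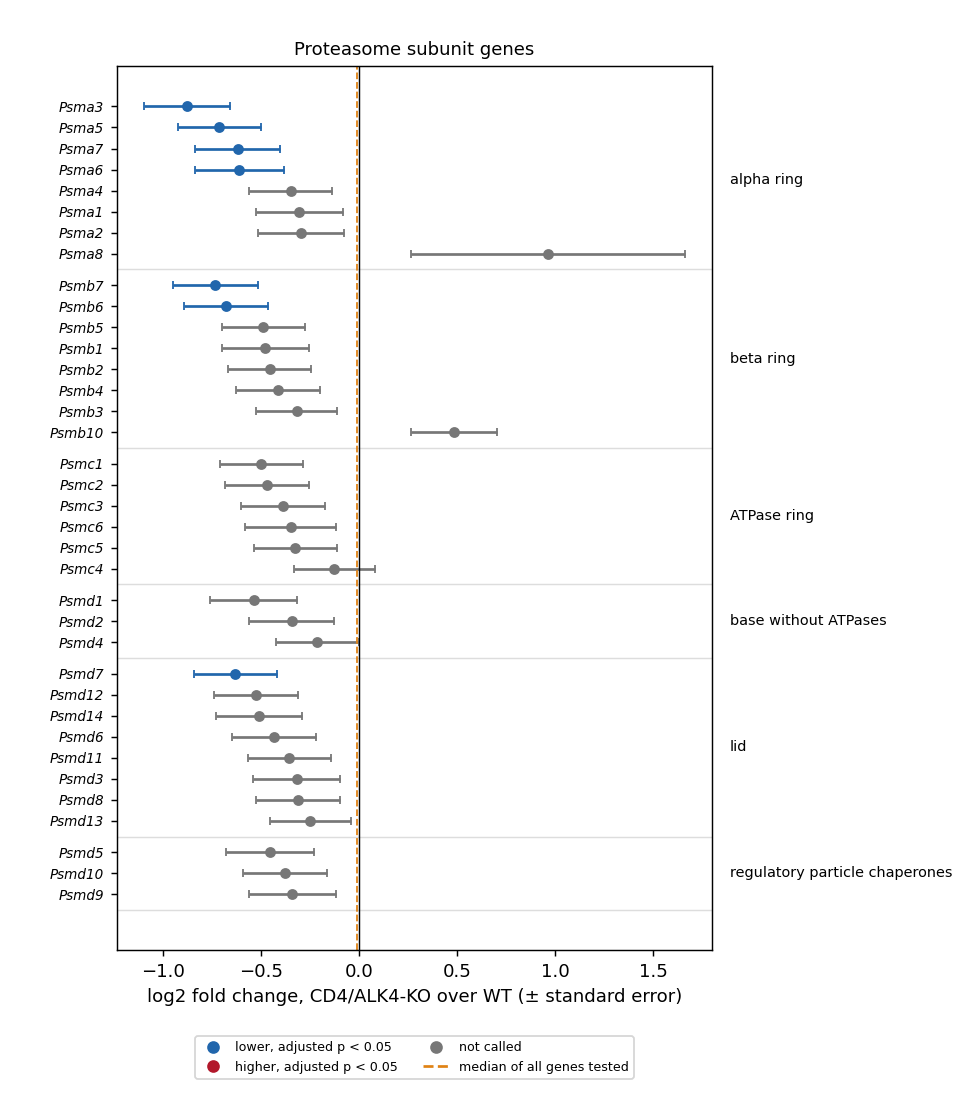
Log2 fold change of each tested proteasome subunit gene between CD4/ALK4-KO and WT (horizontal axis, bars ± 1 standard error, n = 2 libraries each), grouped by role; color marks an adjusted p below 0.05 and the dashed line the median of all genes tested. Of 36 points, 34 lie left of 0 and 7 are called lower.

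**Figure D2:**
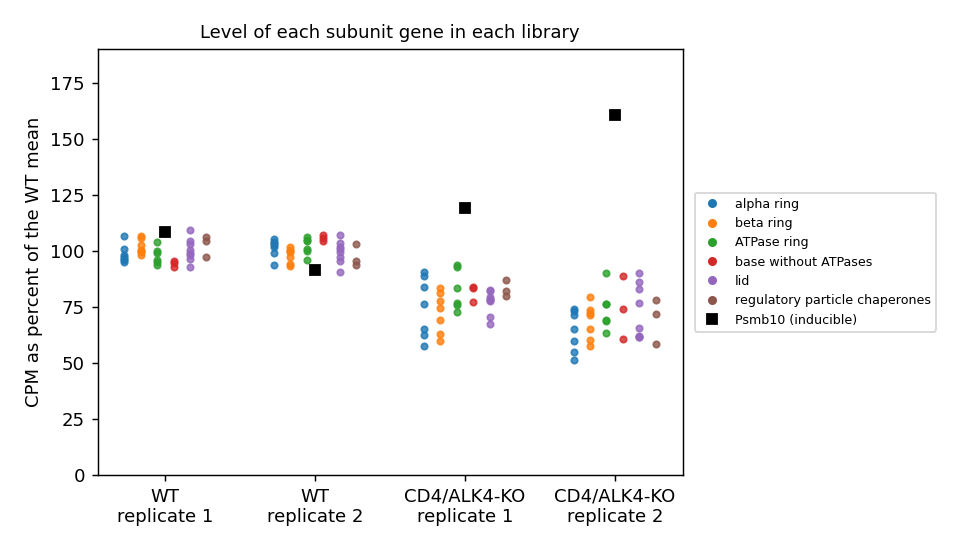
Level of each member in each of the 4 libraries, as percent of its WT mean in TMM-scaled CPM; points are genes, colored by role, and Psma8 and Psmb11 are left out for their low counts. Psmb10 (square) is the 1 gene with both CD4/ALK4-KO libraries above both WT libraries.

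The number of calls changed when 1 library was left out. Each such fit has 1 library in a group, so its spread comes from the other group. The 7 members kept their sign. They lay from -0.96 to -0.53 without WT replicate 1 and from -0.84 to -0.59 without WT replicate 2. Without CD4/ALK4-KO replicate 1 they lay from -0.94 to -0.59, and without replicate 2 from -0.80 to -0.39. Over all genes too, fewer were called lower without either WT library and more without either CD4/ALK4-KO library. Without WT replicate 2 none of the 7 members remained called, without WT replicate 1 only Psma3 did, and without CD4/ALK4-KO replicate 1 there were 16 members called lower, with Psmb1, Psmc1, Psmc2, Psmc6, Psmd1, Psmd5, Psmd6, Psmd12 and Psmd14 in addition. Without CD4/ALK4-KO replicate 2 the count was 7, with Psma6 lost and Psmb5 gained (-0.54, adjusted p = 0.039). The median over the members lay between -0.45 and -0.34 in these 4 fits. Scaling to the genes of the T cell receptor complex (Cd3d, Cd3e, Cd3g and Cd247) in place of TMM moved the median of all genes to -2.19 and that of the members to -2.59, with 12800 genes and 35 members called lower, against 2140 genes with TMM, and 48 genes called higher, against 2422.

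Within the core particle, edgeR called 4 of 8 alpha ring and 2 of 8 beta ring genes lower, against 15.4% of all genes tested. At an unadjusted p below 0.05, 4 alpha ring and 5 beta ring genes were lower, and 1 beta ring gene was higher. In the alpha ring 7 genes lay below 0, and its median log2 fold change was -0.48, against -0.47 in the beta ring. Summed, the alpha ring measured 1986 and 2033 CPM in WT and 1497 and 1276 CPM in CD4/ALK4-KO libraries, a ratio of 0.690. The ring made up a share of 0.264 and 0.267 of the members' counts in WT and 0.254 and 0.243 in CD4/ALK4-KO libraries, with no overlap. The share of the ATPase ring did not overlap either, in the other direction (0.1555 and 0.1588 in WT, 0.1653 and 0.1636 in CD4/ALK4-KO libraries). Shares of the remaining groups overlapped. These shares do not depend on how libraries are scaled, and they were not tested.

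Psma3, on chromosome 12 (GRCm38, 70974621 to 70996347), had 4390 and 4800 counts in WT and 2319 and 2132 in CD4/ALK4-KO libraries. It showed the largest decrease of all members in both absolute log2 terms and adjusted p, with a log2 fold change of -0.88 ± 0.22 (SE, adjusted p = 0.0037). It encodes a subunit of the alpha ring, as do the next 3 genes. Psma5 (chromosome 3, 108256926 to 108279974) showed 2643 and 2800 counts in WT and 1485 and 1471 in CD4/ALK4-KO libraries, and fell by 0.71 ± 0.21 on the log2 scale (adjusted p = 0.012). Psma7 (chromosome 2, 180036374 to 180042433) showed 5324 and 4613 counts against 2821 and 2938, and fell by 0.62 ± 0.22 on the log2 scale (adjusted p = 0.031). In these genes both WT libraries stood well clear of both CD4/ALK4-KO libraries.

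Psma6 (chromosome 12, 55384222 to 55418454) had 4381 and 4472 counts in WT against 2955 and 2196 (log2 fold change -0.61 ± 0.23, adjusted p = 0.042). Its decrease was carried more by CD4/ALK4-KO replicate 2, without which it was -0.39 (adjusted p = 0.095, over a range of 0.00017 to 0.26 when 1 library was left out in turn). The remaining ubiquitous alpha subunit genes Psma1, Psma2 and Psma4 had log2 fold changes of -0.30, -0.30 and -0.35, and none was called. Psma8, the alpha subunit known from the testis, was nearly absent with 11 and 8 counts in WT and 24 and 9 in CD4/ALK4-KO libraries. The groups overlapped and its log2 fold change of 0.96 ± 0.70 did not pass (adjusted p = 0.31), the value being -1.23 when scaled to the T cell receptor complex.

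The beta ring differed within itself, with the constitutive catalytic genes below 0 and the inducible Psmb10 above. Of 8 genes tested 2 fell and 7 lay below 0, and the median log2 fold change was -0.47. Psmb6, which carries the caspase-like site (chromosome 11, 70525367 to 70527858), had 3023 and 2958 counts in WT and 1562 and 1767 in CD4/ALK4-KO libraries, a log2 fold change of -0.68 ± 0.21 (adjusted p = 0.017). Psmb7, which carries the trypsin-like site (chromosome 2, 38588036 to 38644087), fell from 3986 and 3435 counts to 2042 and 1929, which is -0.73 ± 0.22 on the log2 scale (adjusted p = 0.012). The groups were well separated in both genes. Psmb5, which carries the chymotrypsin-like site, had 1364 and 1278 counts against 797 and 881 and missed the threshold (log2 fold change -0.49 ± 0.21, adjusted p = 0.078).

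Among the beta subunits without a catalytic site, Psmb1 had the highest counts, 6313 and 6275 in WT against 4579 and 3450, with a log2 fold change of -0.48 ± 0.22 (adjusted p = 0.10). Its CD4/ALK4-KO replicates differed from each other by more than its WT replicates did, and Psmb1 was at -0.27 without replicate 2 of that group and at -0.70 without replicate 1 (adjusted p = 0.0013). Psmb2, Psmb3 and Psmb4 had log2 fold changes of -0.46, -0.32 and -0.41, none of them called. Psmb11, the catalytic subunit of the thymoproteasome of the thymic cortex, had 0 counts in every library, which allows a level of up to 0.215 to 0.254 CPM (3 counts per library).

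Psmb10 is the inducible counterpart of Psmb7 and the only inducible subunit among the members. It had 1666 and 1384 counts in WT and 1585 and 2218 in CD4/ALK4-KO libraries, or 122 and 102 CPM against 133 and 180 CPM. The groups did not overlap in CPM, but the log2 fold change of 0.48 ± 0.22 missed the threshold (adjusted p = 0.097). Without CD4/ALK4-KO replicate 1 it was 0.71 (adjusted p = 0.0018), without replicate 2 of that group 0.24, and scaled to the T cell receptor complex it was -1.69.

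The inducible genes left out of the members had larger differences, and both passed the test. Psmb8, counterpart of Psmb5 (chromosome 17, 34197721 to 34201454), rose from 2619 and 2607 counts in WT to 4962 and 4714 in CD4/ALK4-KO libraries, with a log2 fold change of 1.06 ± 0.22 (adjusted p = 0.0007) that turned to -1.13 when scaled to the T cell receptor complex. Psmb9, counterpart of Psmb6 (chromosome 17, 34181987 to 34187764), rose from 1015 and 850 counts to 1505 and 1785, with a log2 fold change of 0.99 ± 0.21 (adjusted p = 0.0012) that turned to -1.19 on that scale. Without WT replicate 2, Psmb9 was at 0.86 and no longer called (adjusted p = 0.073).

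The summed level of the constitutive catalytic genes Psmb5, Psmb6 and Psmb7 was 611 and 567 CPM in WT and 370 and 371 CPM in CD4/ALK4-KO libraries (589 ± 31.0 against 370 ± 0.693, SD, n = 2 each). That of Psmb8, Psmb9 and Psmb10 was 387 and 358 CPM in WT and 676 and 706 CPM in CD4/ALK4-KO libraries (372 ± 20.4 against 691 ± 20.9). The constitutive sum thus exceeded the inducible one in both WT libraries, and the inducible sum was the higher in both CD4/ALK4-KO libraries. These sums are not per length, and Psmb8 alone had a mean of 192 CPM in WT and 399 CPM in CD4/ALK4-KO. The order of the sums does not hold for each pair. Per length, as given next, Psmb9 stayed below Psmb6 in every library, and Psmb8 was slightly above Psmb5 already in WT (1.06 and 1.13 times).

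Ratios of each inducible gene to the subunit it replaces do not depend on library scaling, and are given per length of transcript. The length is that of 1 transcript chosen per gene. Psmb5 and Psmb7 share 40.0% and 24.1% of their stretches of 75 bases with other genes, so their counts and ratios are less certain. Psmb9 over Psmb6 was 0.198 and 0.170 in WT and 0.569 and 0.596 in CD4/ALK4-KO libraries, 3.18 times as high. Psmb8 over Psmb5 was 1.06 and 1.13 against 3.44 and 2.96, 2.92 times as high. Psmb10 over Psmb7 was 0.370 and 0.357 against 0.687 and 1.02, 2.30 times as high. In all 3 pairs both CD4/ALK4-KO libraries lay above both WT libraries, and CD4/ALK4-KO replicate 2 stood apart from replicate 1 mainly in the ratio of Psmb10. The pairing follows known replacement of subunits but was computed after the single values had been seen, and no test was made beyond the exact limit of 0.333. The T cell and B cell marker sums were higher and the stromal sum lower in the same libraries, by the values given above, and their part in these ratios was not tested.

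**Figure D3:**
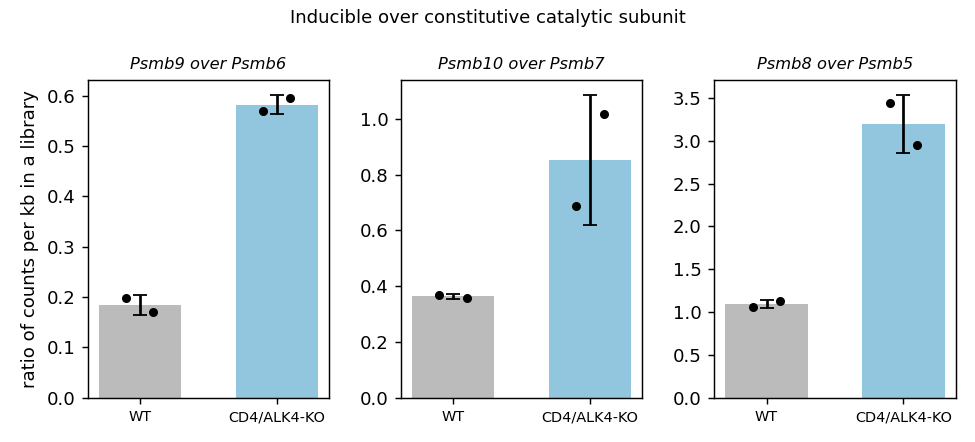
Ratio of each inducible catalytic subunit gene to its constitutive counterpart, in counts per kb of transcript; points are libraries, and bars show the mean ± SD of n = 2 per group. All 3 ratios are higher in both CD4/ALK4-KO libraries than in both WT libraries.

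In the regulatory particle, all 20 genes lay below 0, and the median log2 fold change was -0.37 (-0.47 in the core particle). Of the 20, 1 was called lower, a share below the 15.4% of all genes tested. Core over regulatory particle counts were 1.07 and 1.02 in WT and 0.986 and 0.992 in CD4/ALK4-KO libraries, a small difference with no overlap. The sums of the 4 regulatory groups in CD4/ALK4-KO were between 0.741 and 0.771 times those in WT. These ratios were close to each other and above that of the alpha ring. The beta ring stood at 0.744 with the inducible Psmb10 included, and the core particle without Psmb10 at 0.696.

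The ATPase ring, which unfolds the substrate, had 0 of 6 genes called by edgeR, 2 at an unadjusted p below 0.05 and 1 (Psmc1) by DESeq2. Its log2 fold changes ran from -0.50 (Psmc1) to -0.13 (Psmc4), with a median of -0.37. Psmc3, the ring's gene with the highest counts, had 3733 and 3389 in WT and 2389 and 2464 in CD4/ALK4-KO libraries (log2 fold change -0.39 ± 0.21, adjusted p = 0.18). The groups were separate in Psmc3, as in Psmc1, Psmc2, Psmc4 and Psmc5. Psmc6 had 3166 and 3534 counts against 2750 and 1921, and 1 CD4/ALK4-KO library reached the lower WT library (231 CPM in each). The gene was at -0.35 on the log2 scale, at -0.63 when CD4/ALK4-KO replicate 1 was left out (adjusted p = 0.0069) and at -0.097 when replicate 2 was.

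Of the base subunits other than ATPases, 0 of 3 were called by edgeR, 1 (Psmd1) was at an unadjusted p below 0.05 and the same gene was called by DESeq2. Psmd2, the scaffold on which ubiquitin shuttles dock, had 5368 and 6107 counts in WT and 4185 and 3862 in CD4/ALK4-KO libraries, with a log2 fold change of -0.34 ± 0.22 (adjusted p = 0.23). Psmd1, the other large scaffold, was at -0.54, and the ubiquitin receptor Psmd4 at -0.21. Both WT libraries lay above both CD4/ALK4-KO libraries in each of the 3.

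The lid holds the enzyme that removes the ubiquitin chain, Psmd14, and its partner Psmd7. Psmd7 (chromosome 8, 107580381 to 107588464) was the only regulatory particle gene called by edgeR, and fell from 2914 and 2845 counts in WT to 1692 and 1618 in CD4/ALK4-KO libraries (log2 fold change -0.63 ± 0.21, adjusted p = 0.0255). Psmd14 lay at -0.51 (adjusted p = 0.077) and Psmd12, which of the members not called by edgeR had the lowest adjusted p, at -0.52 (0.064); DESeq2 called Psmd7 and Psmd12 (adjusted p = 0.048). Psmd8, with the highest counts of the lid, had 3403 and 3074 against 2216 and 2430 (log2 fold change -0.31 ± 0.21, adjusted p = 0.28). In all 8 lid genes the groups did not overlap, and the other 4, Psmd3, Psmd6, Psmd11 and Psmd13, lay between -0.43 and -0.25.

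The chaperones Psmd5, Psmd9 and Psmd10 guide assembly of the base and are absent from the finished particle. By either tool 0 of 3 were called, and 0 reached an unadjusted p below 0.05. Psmd5 had 1758 and 1590 counts in WT and 1276 and 890 in CD4/ALK4-KO libraries (log2 fold change -0.46 ± 0.22, adjusted p = 0.12), and its lowest value was that of CD4/ALK4-KO replicate 2. Without that library the log2 fold change of Psmd5 was -0.20, and without CD4/ALK4-KO replicate 1 it was -0.74 (adjusted p = 0.0031). Psmd9 and Psmd10 were at -0.34 and -0.38.

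Compared per length, core particle genes stood above regulatory particle genes. Their median level in WT was 205 CPM per kb of transcript, from 0.412 in Psma8 to 399 in Psma7, and 141 CPM per kb in CD4/ALK4-KO. Regulatory particle genes had a median level of 115 CPM per kb in WT, from 15.9 in the chaperone Psmd9 to 160 in Psmc3, and of 84.5 CPM per kb in CD4/ALK4-KO. The median gene with a known length stood at 9.08 CPM per kb, and 30 of the 36 tested members were above the 90th percentile of all such genes. Members that end up in the particle in equal copies thus differed in level by severalfold, and the lowest regulatory levels belonged to chaperones and to the lid genes Psmd11 (27.5 CPM per kb) and Psmd3 (36.9 CPM per kb). A level per length rests on 1 transcript chosen per gene, and a long one lowers the level: it was 2911 and 2846 bases in Psma2 and Psma3, and 4397, 2848 and 2597 bases in Psmd5, Psmd11 and Psmd9, all of the latter among the lowest regulatory levels.

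**Figure D4:**
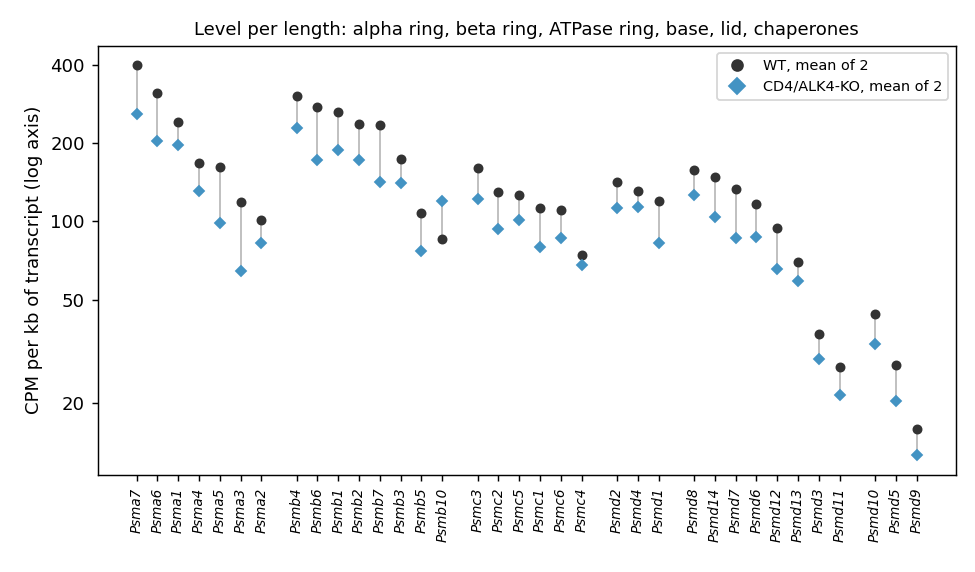
Mean level of each member in WT (circles) and CD4/ALK4-KO (diamonds), in CPM per kb of transcript on a log axis, ordered by role and then by WT level; n = 2 libraries each, and Psma8 and Psmb11 are left out. Psma7 is highest in WT at 399 and Psmd9 lowest at 15.9, and Psmb10 is the 1 gene with the diamond above the circle.

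The members lie on 16 chromosomes. Since a read of 75 bases can match processed pseudogenes, each transcript was compared with those of all other annotated genes. Of the 37 members, 13 shared at least 1 stretch of 75 bases with another gene, and 5 shared over 20% of theirs: Psmb5 (40.0%), Psma5 (39.8%), Psmb3 (33.1%), Psmb7 (24.1%, with its neighbor Nek6) and Psma3 (21.3%). Of the genes called lower, Psma5, Psmb7 and Psma3 therefore have less certain counts, whereas Psma6, Psma7, Psmb6 and Psmd7 shared none.

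Other genes of the pathway moved in both directions. Of 33 examined, 6 fell and 4 rose by edgeR, and their median log2 fold change was -0.27. The 6 that fell are 18.2% of the list, against 15.4% of all genes tested, and the 4 that rose are 12.1%, against 17.4%. The strongest decrease was in Sem1, a small lid subunit without a Psm symbol, which had 4158 and 4140 counts in WT and 1134 and 1904 in CD4/ALK4-KO libraries (log2 fold change -1.29 ± 0.24, adjusted p = 0.00027). The value lay below that of every Psm lid gene, and Sem1 was called in each fit that left out 1 library. Adrm1, a ubiquitin receptor of the base, was at -0.35 and not called.

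Assembly factors of the core particle leaned the same way as the members, with all 5 below 0 and 2 called, against 15.4% of all genes tested. Psmg1 had 607 and 587 counts in WT and 389 and 302 in CD4/ALK4-KO libraries (log2 fold change -0.62, adjusted p = 0.044), a call lost with DESeq2 (adjusted p = 0.057) and without CD4/ALK4-KO replicate 2 (-0.43, adjusted p = 0.16). Psmg3 had 360 and 396 counts against 181 and 208 (-0.79, adjusted p = 0.021). Pomp, Psmg2 and Psmg4 lay between -0.55 and -0.37. In contrast, the 5 genes of activators and of the inhibitor Psmf1 all lay above 0, with 0 called by edgeR, 1 at an unadjusted p below 0.05 and 1 by DESeq2. Psme1 and Psme2, which form the interferon-inducible activator cap, were at 0.56 (adjusted p = 0.055) and 0.23, and all 5 lay below 0 when scaled to the T cell receptor complex.

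Of 11 bound enzymes and ubiquitin shuttles, 2 fell, which is near the 15.4% of all genes tested that were called lower. The shuttle Rad23b had 4137 and 3501 counts in WT and 1558 and 1994 in CD4/ALK4-KO libraries (log2 fold change -0.94, adjusted p = 0.0025). Txnl1, a thioredoxin-like protein bound to the lid, had 2714 and 2677 counts against 1450 and 1388 (-0.76, adjusted p = 0.0082). In both genes the 2 groups were far apart.

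The transcription factor Nfe2l1, which was described above with its motif, had 1336 and 1183 counts in WT and 743 and 1124 in CD4/ALK4-KO libraries, with overlap in CPM (log2 fold change -0.27, adjusted p = 0.38). Its value depended on the CD4/ALK4-KO library used, being 0.0082 without replicate 1 and -0.57 without replicate 2 (adjusted p = 0.028). Nfe2l2 was at -0.29 (adjusted p = 0.33). Ddi2, the protease that activates the Nfe2l1 protein, rose from 141 and 138 counts to 243 and 224 (log2 fold change 0.91, adjusted p = 0.014), which turned to -1.28 when scaled to the T cell receptor complex.

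Among ubiquitin genes, Rps27a, which encodes ubiquitin fused to a ribosomal protein, had 12373 and 11978 counts in WT and 7028 and 7021 in CD4/ALK4-KO libraries (-0.63, adjusted p = 0.022). It shares most of its sequence with other genes (67.5% of its 75-base stretches), so its counts are uncertain. Of the other pathway genes called, Psmg3 shared 20.3%, Ddi2 17.7%, Psmb9 10.8% and Psmb8 3.22% of theirs. Uba1, the ubiquitin-activating enzyme, rose from 3307 and 3139 counts to 3662 and 4983 once depth is accounted for (0.59, adjusted p = 0.045); this rested on CD4/ALK4-KO replicate 2, without which it was 0.37 and not called, and turned to -1.59 when scaled to the T cell receptor complex. The calls in this pathway list also changed when 1 library was left out, with fewer still called without either WT library. The 6 lower genes lay from -1.30 to -0.61 without WT replicate 1 and from -1.29 to -0.64 without WT replicate 2. The 4 higher genes lay from 0.61 to 1.10 and from 0.55 to 1.055 in these fits.

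**Figure D5:**
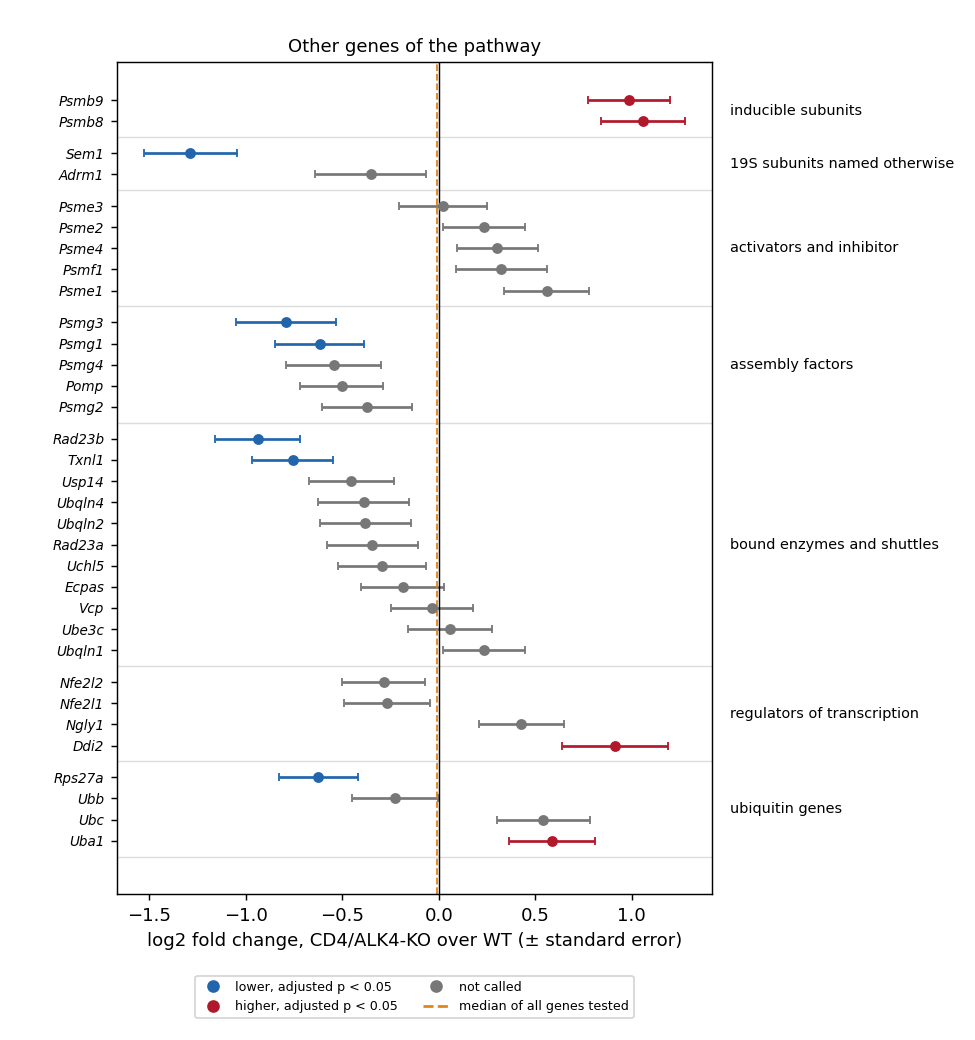
Log2 fold change of 33 other genes of the pathway between CD4/ALK4-KO and WT (bars ± 1 standard error, n = 2 libraries each), grouped by role; blue marks genes called lower, red genes called higher, and the dashed line the median of all genes tested. The inducible subunits and Sem1 lie farthest from 0, on opposite sides.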

How the data were processed

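The authors deposited 1 file of raw read counts per gene and library, and these counts are the only measurement used. According to the submitters' processing notes and the study's methods, single-end reads of 75 bases from unstranded TruSeq libraries were aligned with HISAT2 to mm10 and counted with HTSeq; versions, annotation and the strand setting are not given in the sources used here. Counts were normalized by TMM and tested with edgeR 4.0.16 (robust quasi-likelihood, filterByExpr, genotype as the only term, Benjamini-Hochberg over all 13919 genes, threshold 0.05) in R 4.3.3; DESeq2 1.42.0 was an alternative. The procedure was first tested on simulated data. Replicates differed by more than sampling noise (chi-square per degree of freedom 13.3 in WT and 24.0 in CD4/ALK4-KO), and p-values measure only the spread between these libraries. Floors of 3 counts cover counting error only.

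The members, the lists and the rule for genes given with values in every library (members called, the member with the highest mean count in each role, Psma8, Psmb10, Psmb11, pathway genes called, Psmb8, Psmb9 and Nfe2l1) were chosen with earlier results of these data known. Psmb5, Psmc6 and the ratios were added after values were seen. Gene positions and transcripts came from GENCODE M21 (GRCm38) and promoters from RefSeq. Of 34 pathway genes, 33 were listed; a further gene of the list is not reported here. Alternatives covered scaling, filters, the test, a replicate block and leaving out each library. Protein identity between members was not analysed here.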

Additional observations from a re-analysis of the deposited data

How the results depend on the processing

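The 7 members called lower became 15 with upper quartile scaling, 35 with scaling to the T cell receptor complex, and 0 to 16 when 1 library was left out; DESeq2's size factors, both other filters on low counts (7 each) and the DESeq2 Wald test (10) gave counts within 1.5 times of 7. Members called higher were 0 to 1 when 1 library was left out. With upper quartile scaling the median log2 fold change was -0.47 over the members, -0.54 over the core and -0.435 over the regulatory particle (shift of all genes -0.068), and with receptor complex scaling -2.59, -2.66 and -2.56 (shift -2.18); leaving out 1 library moved the core median to between -0.51 and -0.38. On that receptor scale 33 pathway genes were lower and 0 higher, and 12800 and 48 of all genes; leaving out 1 library gave 1 to 11 and 2 to 6 pathway genes, and 754 to 2618 and 1103 to 2923 of all genes. Signs reversed on the receptor scale for Psma8 (-1.23), Psmb10 (-1.69), Psmb8 (-1.13), Psmb9 (-1.19), Ddi2 (-1.28), Uba1 (-1.59) and Acvr1b (-2.01), and when 1 library was left out for Nfe2l1 (-0.57 to 0.0082) and Acvr1b (-0.065 to 0.39). For the receptor scale the construction sets the shift; for the other changes the cause was not tested.

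With the replicate block, 1 member (Psma3) was lower, and 2 pathway genes were lower and 2 higher. Equal numbers share no stated origin and their deviations correlated at -0.26 over genes. A crossed pairing, chosen after seeing the data, gave 18 members lower and 1 higher, and 7 pathway genes higher. No setting other than the receptor scale turned the sign of a tested member. With 2 libraries per group and standard errors of 0.21 to 0.23, 27 members with values from -0.54 to -0.13 missed the threshold, which does not show that they did not differ.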
